A study of Mus musculus with 31 samples.

Results

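The genes described here are 7 forkhead transcription factors, Foxo1, Foxo3, Foxo6, Foxn2, Foxn3, Foxp1 and Foxk1. They were taken by gene symbol from a table of 15648 genes measured by bulk RNA-seq in the hippocampus of 31 mice, of which 22 forkhead genes were analysed here. The rule uses symbols and no measured value. All mice were adult OT-I/Rag1-/- mice, whose T cells carry a transgenic receptor for a peptide of ovalbumin (OVA) and which lack the T and B cells that need a rearranged receptor of their own. A recombinant adeno-associated virus was injected into dorsal CA1 of both hippocampi, and it drove either OVA and mCherry (rAAV-OVA) or mCherry alone (rAAV-control) from the neuronal hSyn promoter. The left hippocampus was sequenced at 2, 5, 8 or 28 days, with 4 mice per treatment and day except for rAAV-control at 8 days with 3 mice. By the labels 23 mice were of batch 1 and 8 of batch 2. Every 5-day and 8-day mouse belonged to batch 1, and each group at 2 and 28 days held 2 mice of each batch. The comparison asks how an attack of OVA-specific CD8+ T cells on OVA-expressing neurons changes the RNA of the whole hippocampus over time.

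Forkhead proteins bind DNA through a winged-helix domain that reads a short core, TAAACA. The FOXO proteins (Foxo1, Foxo3, Foxo6) sit at the end of the insulin and growth factor pathway. When AKT phosphorylates them they leave the nucleus bound to 14-3-3 proteins, and when the pathway is quiet they return and switch on genes of cell cycle arrest, stress resistance, autophagy and, in T cells, homing. Their RNA level therefore does not show how active they are. Foxp1 is a repressor of the FOXP subfamily that is strong in striatal projection neurons, in pyramidal neurons and in resting T cells. Foxn2 and Foxn3 belong to the FOXN subfamily, with Foxn3 known as a repressor that works with a Sin3 corepressor complex. Foxk1 is a repressor of autophagy and starvation genes that is regulated through mTOR.

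Promoter sequence from RefSeq (GRCm38.p6) was at hand for 4 of the 7 genes, as windows of 300 bases that run from 250 bases before an annotated start to 50 bases after it. The core TAAACA, or TGTTTA when it lies on the other strand, occurred in 4416 of 32851 such windows (13.4%). The window of Foxo1, of Foxo3 and of Foxn3 held no match, whereas all 3 windows of Foxp1 did. The stretches around the 4 matches of Foxp1 are shown because it was the member whose windows held the core that its own family reads. They are written 5′ to 3′ on the strand of the gene (minus), with the match in capitals.
Foxp1, chr6:99521069-99521094, 91 bases before the start: aaggactaaaTAAACAgttgtaactc
Foxp1, chr6:99266577-99266602, 77 bases before the start: tgagtgtttgTGTTTAtgcaaagggg
Foxp1, chr6:99266516-99266541, 16 bases before the start: ggctttgttgTGTTTAgcccacatac
Foxp1, chr6:99028338-99028363, 55 bases before the start: cggcgcggggTGTTTAgaggcgggtt
The longer GTAAACA, which contains the core, was found in 3.65% of all windows and in none of the members' windows. A match is a run of letters and not a bound site, and the absence of a match holds for these windows only.

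Library totals lay between 19046977 and 57407902 counts (median 27024978), and each member was covered by 228 to 4436 counts per mouse. Levels are given as CPM, counts scaled to the library total times its TMM factor. This is a normalisation factor of each mouse from edgeR, between 0.897 and 1.11. CPM were not divided by gene length and are compared between mice and not between genes. Markers of CA1 pyramidal and dentate granule neurons were detected in every mouse (5 of 5 each, none at 0). Of 7 T cell markers 2 were analysed here, and Cd3e, Cd3d, Cd3g, Cd8b1 and Cd2 were not. In bulk tissue, fewer cells of a type and less RNA per cell cannot be told apart.

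Mouse 4 of the rAAV-OVA group at 28 days stood apart from all other mice. The summed level of 8 genes of striatal neurons, a list chosen after the data were seen, was 2206 CPM in this mouse and 73.7 to 158 CPM in the other 30 mice. The dopamine receptor genes Drd1 and Drd2 reached 92.5 and 99.9 CPM, against at most 16.8 and 5.17 CPM elsewhere, whereas Slc17a7, the glutamate transporter of cortical and hippocampal excitatory neurons, was at 213 CPM against 369 to 1957 CPM. Its summed T cell markers (10.2 CPM) and monocyte markers (81.0 CPM) lay below those of the other 3 mice of its group, at 117 to 243 and 759 to 1646 CPM. Mouse 3 of the same group had choroid plexus markers at 5217 CPM against 85.4 to 408 CPM in the other 3 mice, and these markers ranged from 65.7 to 4233 CPM in the controls of that day. The main 28-day results are therefore also given without mouse 4.

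At 2 days no member differed between treatments. No gene of the table passed FDR ≤ 0.05 (0% of 15648) in edgeR's quasi-likelihood test, 1428 genes (9.13%) had an unadjusted p under 0.05, and DESeq2 called 20 genes, none of them a member. Here and below, Log2FC is the fitted difference on the log2 scale, rAAV-OVA minus rAAV-control, after adjustment for 2 surrogate variables, which are estimates of variation shared by many genes. A gene is said to rise or fall at FDR ≤ 0.05 and is called a DEG when its absolute Log2FC is also at least 0.66. The member Log2FC at 2 days ran from -0.07 for Foxo3 to 0.24 for Foxn2 (SE 0.11, unadjusted p = 0.0452, FDR 0.54 in edgeR). Foxo1, for example, stood at 36, 51.2, 40.1 and 47.9 CPM in rAAV-control mice and at 44.4, 35.3, 46.7 and 44.3 CPM in rAAV-OVA mice, so that the ranges of the groups overlapped.

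**Figure D1:**
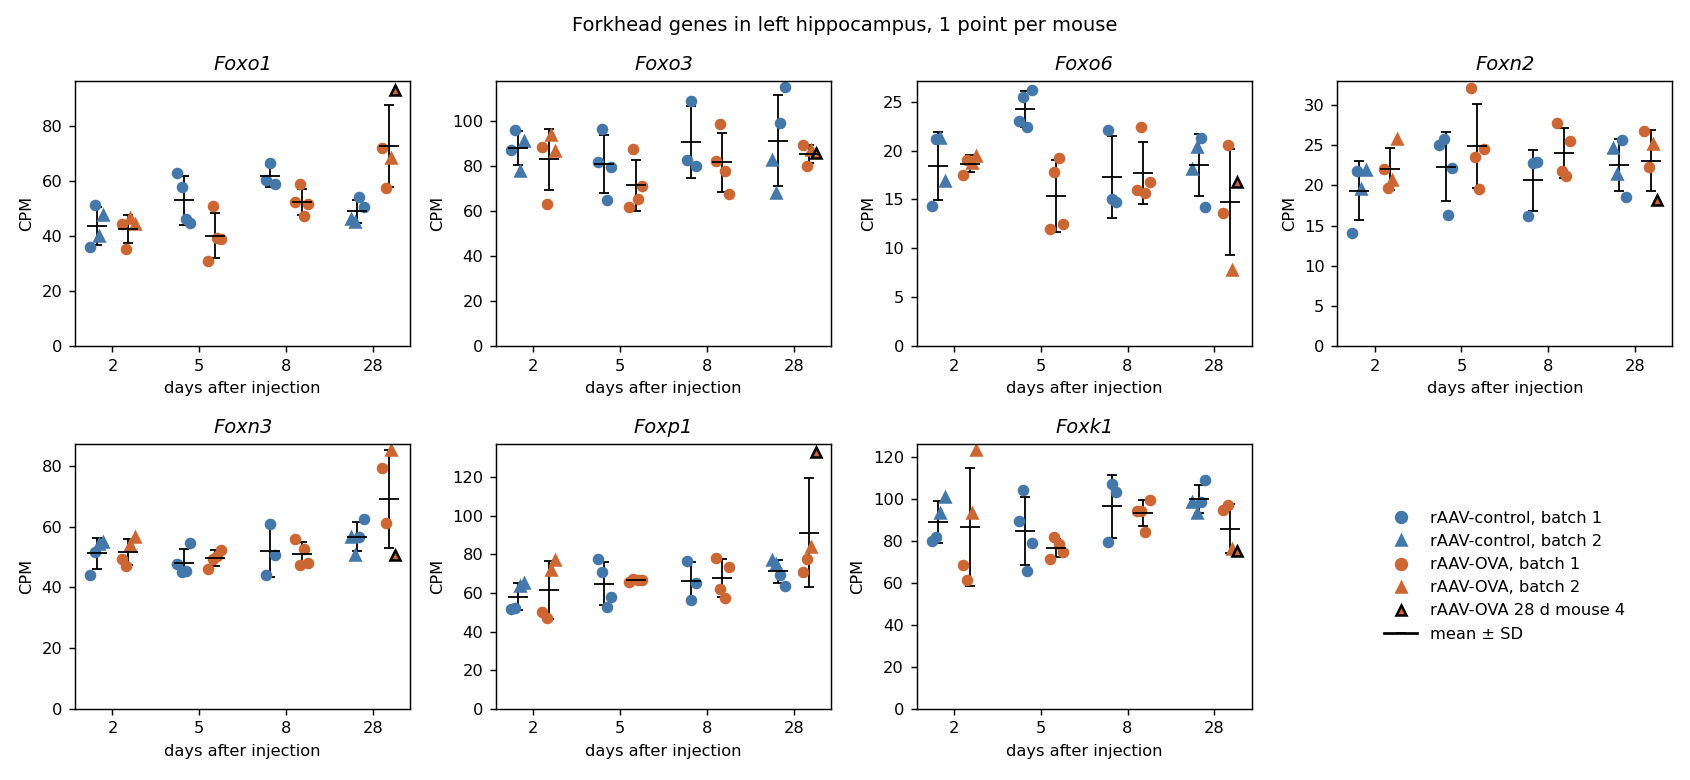
CPM of each of the 7 forkhead genes in each of the 31 mice, by day after injection and treatment; each point is a mouse and the bars give the group mean and SD. Foxo1 separates the treatments at 28 days, with rAAV-control mice at 45.3 to 54.2 CPM and rAAV-OVA mice at 57.7 to 93.4 CPM, while Foxo3 overlaps at every day.

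Foxo1, the best studied FOXO gene and a factor of vascular and T cell quiescence, responded differently at 5 and 28 days. At 5 days it was detected at 63.2, 57.8, 46.3 and 44.9 CPM in rAAV-control mice and at 31, 50.9, 39.5 and 39.0 CPM in rAAV-OVA mice. The rAAV-OVA values were mostly lower but mouse 2 reached into the control range. The Log2FC of -0.35 (SE 0.15, 95% CI -0.67 to -0.04) did not pass the threshold (FDR 0.082, edgeR), beside 29.2% of all genes called. It did pass with no covariates (-0.40, FDR 0.037 in edgeR), with the batch label in place of the surrogate variables (-0.40, FDR 0.036 in edgeR), without rAAV-OVA mouse 2 (Log2FC -0.53, FDR 0.0095 in edgeR) and without rAAV-control mouse 4 (Log2FC -0.44, FDR 0.034 in edgeR). The fits with no covariates and with the batch label called 5200 and 5593 of 15648 genes, against 4566 in the main fit. At 8 days the rAAV-control mice had 60.6, 66.6 and 59.0 CPM and the rAAV-OVA mice 52.4, 58.9, 47.5 and 51.6 CPM. All rAAV-OVA mice were just below all controls, the state of 26.4% of all genes at that day in either direction, and the Log2FC was -0.18 (SE 0.16, FDR 0.43 in edgeR).

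At 28 days Foxo1 rose. It stood at 46.3, 45.3, 54.2 and 50.5 CPM in rAAV-control mice (mean 49.1 ± 4.09, SD, n = 4) and at 72.1, 57.7, 68.4 and 93.4 CPM in rAAV-OVA mice (72.9 ± 15, SD, n = 4). Every rAAV-OVA mouse lay above every control, as was true of 29% of all genes in either direction. The Log2FC was 0.60 (SE 0.15, 95% CI 0.28 to 0.91, FDR 0.0048 in edgeR), below the DEG limit, beside 33.4% of all genes called and 19.2% called higher. Mouse 4 held the highest value. Without it the 3 remaining mice were still above all controls, where 48.8% of all genes had groups that did not overlap, but the Log2FC was 0.38 (SE 0.18, 95% CI 0.01 to 0.76) and FDR 0.12 in edgeR, so that the call was lost. The same 3 mice passed with no covariates (Log2FC 0.48, FDR 0.011 in edgeR), with the batch label as covariate (0.48, FDR 0.011 in edgeR) and in a fit of the 28-day mice alone (0.45, FDR 0.014 in edgeR). Those fits called 6946, 7230 and 5476 of 15648 genes, against 3604 with the surrogate variables. Leaving out any other mouse of the day kept the call. Within batch 1 the Log2FC was 0.36 and within batch 2, which holds mouse 4, it was 0.80, and neither passed with 2 mice against 2 (FDR 0.22 and 0.36 in edgeR).

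The change between the early and the late response of Foxo1 was tested directly. The Log2FC at 28 days exceeded that at 5 days by 0.95 (SE 0.20, 95% CI 0.53 to 1.37, FDR 0.0059 in edgeR), beside 9.63% of all genes called in either direction and 5.58% called higher. Foxo1 was the only member of the 7 to pass. The difference was 0.81 without mouse 4 (SE 0.21, 95% CI 0.38 to 1.24, FDR 0.027 in edgeR; 4.12% of all genes called) and 0.81 to 1.14 when each of the 16 mice of the 5 and 28 days was left out in turn, with the call kept in all 16 fits. All 5-day mice belonged to batch 1, and with the batch label as covariate the difference was 0.97 (FDR 0.011 in edgeR). Against the 8-day response the difference was 0.78 (SE 0.22, unadjusted p = 0.00165, FDR 0.13 in edgeR), where edgeR called no gene of the table (0%), 2521 genes (16.1%) had an unadjusted p under 0.05, and DESeq2's Wald test called 223 genes, Foxo1 among them (Log2FC difference 0.80, FDR 0.042). Without mouse 4 it was 0.58 (FDR 0.56 in edgeR).

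Within the rAAV-OVA group Foxo1 was higher at 28 than at 2 days by a Log2FC of 0.72 (SE 0.15, FDR 0.0015 in edgeR; 34.1% of all genes called). Without mouse 4 it was 0.55 (FDR 0.016 in edgeR; 30.5% called). Within rAAV-control the same interval gave 0.13 (SE 0.15, 95% CI -0.18 to 0.43, FDR 0.76 in edgeR; 3.27% called). The 28-day rAAV-OVA mice serve in both this comparison and the one with rAAV-control.

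Several cell type markers moved with Foxo1 at 28 days. Of 5 endothelial markers 3 rose (median Log2FC 0.95, and 1.14 without mouse 4 with 3 rising), and their summed level was 173 to 298 CPM in rAAV-OVA mice against 122 to 159 CPM in controls. Of 5 neuronal markers 4 fell (median -0.60), with sums of 1820 to 3544 CPM against 4221 to 4962 CPM, and 2 fell without mouse 4. Both T cell markers of the table rose, and their sum was 0.778 to 1.15 CPM in controls and 10.2 to 243 CPM in rAAV-OVA mice. Of 5 microglial markers 4 rose (median 0.99, and 1.28 without mouse 4 with 4 rising), with sums of 476 to 1418 CPM against 359 to 402 CPM. All 5 monocyte markers rose (median 4.61, and 5.31 without mouse 4), with sums of 81.0 to 1646 CPM against 9.62 to 20.1 CPM, as did 3 of 5 astrocyte markers, of which 1 rose without mouse 4. At 5 days 0 of 5 endothelial markers rose and 1 fell (107 to 142 CPM against 147 to 160 CPM). The part of these cell types in the level of Foxo1 was not tested. In mouse 4, which had the highest Foxo1, the endothelial sum was 197 CPM and the T cell sum the lowest of its group.

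**Figure D2:**
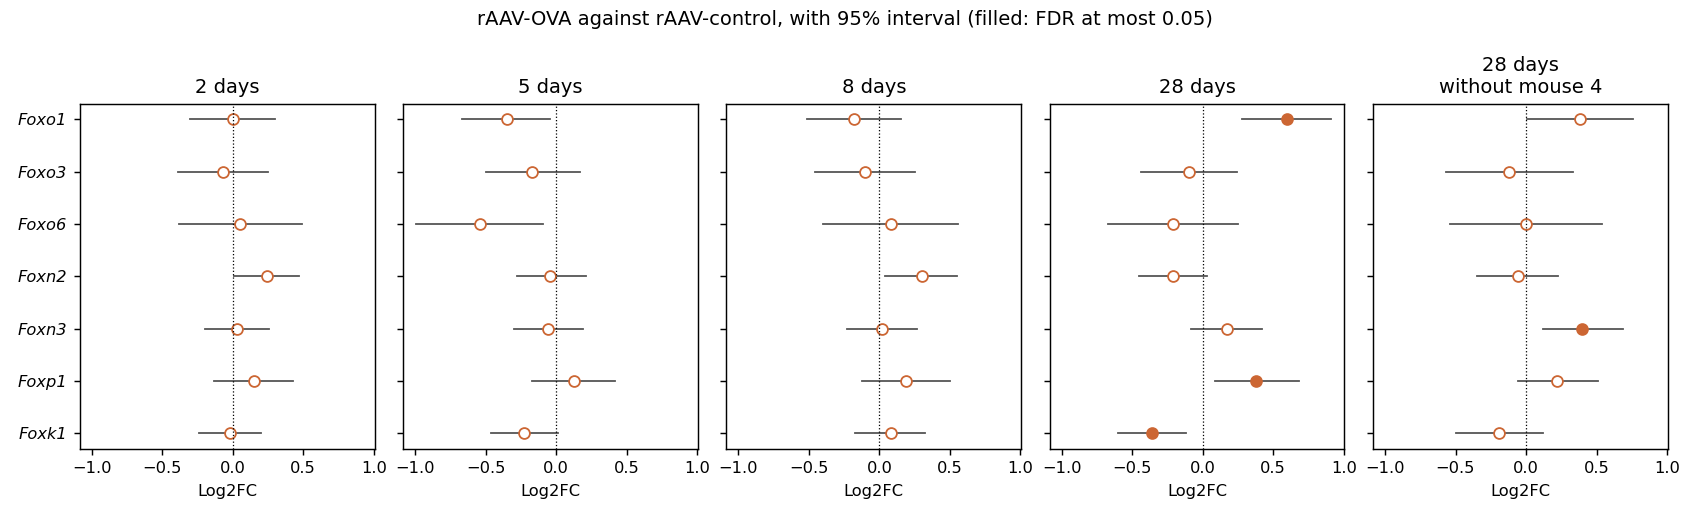
Log2FC (rAAV-OVA minus rAAV-control, edgeR, with 95% confidence interval) of the 7 genes at 2, 5, 8 and 28 days, and at 28 days without mouse 4; filled points passed FDR ≤ 0.05. With all mice Foxo1 (0.60), Foxp1 (0.38) and Foxk1 (-0.36) are filled at 28 days, and without mouse 4 Foxn3 (0.40) is the filled one.

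Foxo3, the FOXO gene tied to stress resistance and neuronal death genes, did not pass the threshold in any comparison. Its mice spanned 62.0 to 115 CPM with a median of 82.8 CPM. At 28 days the rAAV-control mice had 82.5, 68.2, 99.1 and 115 CPM and the rAAV-OVA mice 89.3, 79.9, 87.2 and 85.6 CPM, which lay inside the control range. The Log2FC was -0.07, -0.17, -0.10 and -0.10 at 2, 5, 8 and 28 days, and the 95% CI at 5 days was -0.50 to 0.17. At 28 days it was -0.44 to 0.24 with all mice and -0.57 to 0.33 without mouse 4.

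Foxo6, the FOXO gene most restricted to neurons and one that remains nuclear more readily than the others, had separate groups at 5 days. The rAAV-control mice had 23, 25.5, 22.4 and 26.2 CPM and the rAAV-OVA mice 12, 17.8, 19.2 and 12.5 CPM. The groups did not overlap, as was the case for 40.6% of all genes at that day. The Log2FC of -0.54 (SE 0.22, 95% CI -0.99 to -0.09) did not pass (FDR 0.067, edgeR), beside 15.2% of all genes called higher and 14% called lower. It passed without covariates (-0.66, FDR 0.018 in edgeR), with the batch label (-0.66, FDR 0.019 in edgeR) and in the 5-day mice alone (-0.63, FDR 0.0089 in edgeR). Those fits called 5200, 5593 and 6418 of 15648 genes, against 4566 in the main fit. Neuronal markers were lower on the same day, at 2912 to 3372 CPM in sum against 4368 to 5153 CPM, with 2 of 5 falling, and their part in the level of Foxo6 was not tested. At 28 days Foxo6 had 13.6, 20.6, 7.81 and 16.8 CPM in rAAV-OVA mice and 18.1, 20.4, 21.3 and 14.2 CPM in controls, and the ranges overlapped. The Log2FC was -0.21 (SE 0.22, FDR 0.48 in edgeR), and 0.00 without mouse 4 (95% CI -0.54 to 0.54). The same mice gave -0.34 with no covariates, -0.37 with the batch label and -0.37 in the 28-day mice alone, none past the threshold (FDR 0.24, 0.22 and 0.36 in edgeR).

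Foxp1 rose at 28 days, and the rise rested on mouse 4 more than on any other mouse. The rAAV-control mice stood at 77.2, 74.8, 69.2 and 63.4 CPM (71.1 ± 6.14, SD, n = 4) and the rAAV-OVA mice at 70.9, 77.5, 83.9 and 133 CPM (91.2 ± 28.0, SD, n = 4). Mouse 1 lay within the control range, mice 2 and 3 were just above it, and mouse 4 had the highest value of all 31 mice. The Log2FC was 0.38 (SE 0.14, 95% CI 0.09 to 0.68, FDR 0.040 in edgeR), one of 19.2% of all genes called higher at 28 days. Without mouse 4 it was 0.22 (SE 0.14, 95% CI -0.06 to 0.51, FDR 0.25 in edgeR). The call was also lost without rAAV-OVA mouse 3 (0.30, FDR 0.11 in edgeR) and without rAAV-control mouse 1 (0.39, FDR 0.062 in edgeR), mouse 3 (0.30, FDR 0.12 in edgeR) or mouse 4 (0.32, FDR 0.11 in edgeR). It did not pass with no covariates (0.36, FDR 0.10 in edgeR), in the 28-day mice alone (0.36, FDR 0.18 in edgeR) or in limma voom (0.36, FDR 0.056), nor in batch 1 alone (0.21, FDR 0.34 in edgeR) or batch 2 alone (0.49, FDR 0.41 in edgeR). Within the rAAV-OVA group Foxp1 was higher at 28 than at 2 days by 0.44 (FDR 0.022, edgeR; 19.2% of all genes called higher) and by 0.34 without mouse 4 (FDR 0.044, edgeR). At 2, 5 and 8 days the Log2FC was 0.15, 0.13 and 0.19 and no test passed. At 5 days the 4 rAAV-OVA mice agreed closely, at 65.6 to 67.1 CPM, inside a control range of 52.9 to 77.4 CPM.

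**Figure D3:**
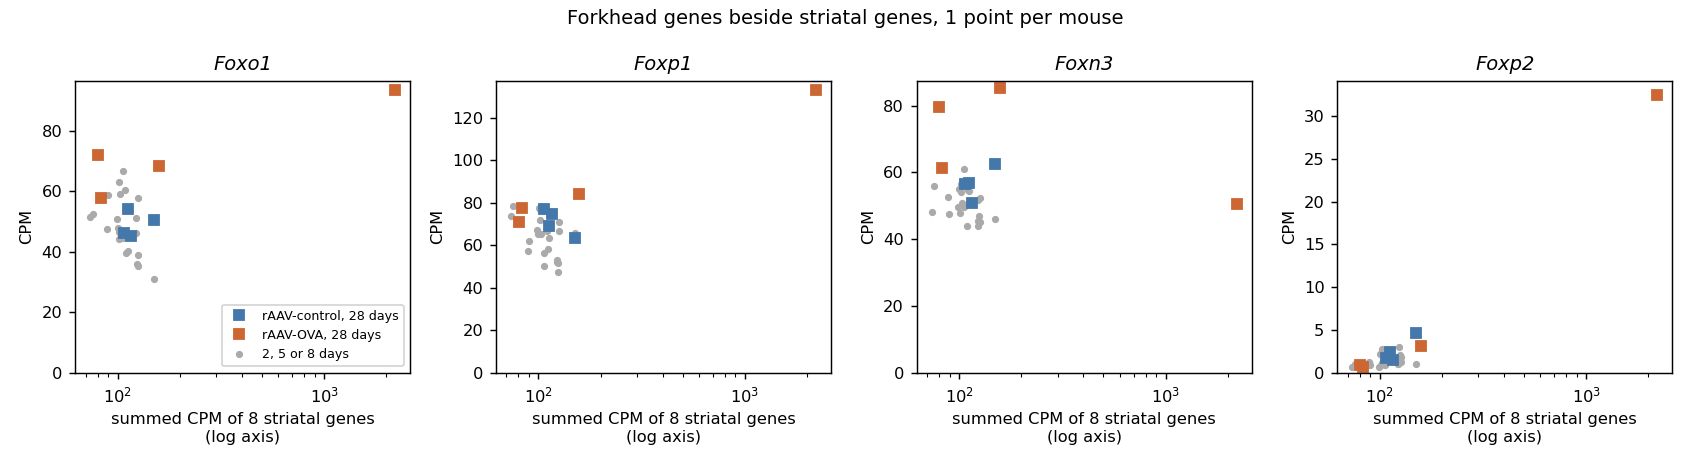
CPM of Foxo1, Foxp1, Foxn3 and Foxp2 (y) against the summed CPM of 8 striatal genes (x, log axis) in each of the 31 mice; squares are the 28-day mice, coloured by treatment, and grey points the other days. Mouse 4 of the rAAV-OVA group at 28 days lies alone at 2206 CPM on the x axis, with the highest Foxo1 (93.4 CPM), Foxp1 (133 CPM) and Foxp2 (32.5 CPM) of all mice and Foxn3 at 50.6 CPM, inside the range of the other mice.

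Foxn2, the less studied of the FOXN pair, spanned 14.1 to 32.1 CPM over all mice and passed no test. At 8 days it had 16.2, 22.8 and 22.9 CPM in rAAV-control mice and 27.8, 21.8, 21.2 and 25.5 CPM in rAAV-OVA mice, with a Log2FC of 0.30 (SE 0.12, 95% CI 0.04 to 0.55, FDR 0.090 in edgeR; 18.3% of all genes called, 13.9% higher and 4.44% lower). At 28 days the fitted Log2FC was -0.21 (SE 0.12, 95% CI -0.45 to 0.03, FDR 0.18 in edgeR) although the group means were close, at 22.6 ± 3.22 CPM in controls and 23.1 ± 3.76 CPM in rAAV-OVA mice (SD, n = 4 each). Without mouse 4 it was -0.06 (FDR 0.80, edgeR). With no covariates the value for all mice was 0.03.

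Foxn3 at 28 days stood at 56.6, 50.8, 56.8 and 62.5 CPM in rAAV-control mice and at 79.5, 61.2, 85.3 and 50.6 CPM in rAAV-OVA mice. Mice 1 and 3 were above all controls, mouse 2 was within their range and mouse 4 was just below it. With all mice the Log2FC was 0.17 (SE 0.12, 95% CI -0.08 to 0.42, FDR 0.28 in edgeR). Without mouse 4 Foxn3 rose, with a Log2FC of 0.40 (SE 0.14, 95% CI 0.12 to 0.69, FDR 0.038 in edgeR; 23% of all genes called, 17.2% higher). That call held with no covariates (0.46, FDR 0.0032 in edgeR), with the batch label (0.48, FDR 0.0015 in edgeR) and in the 28-day mice alone (0.43, FDR 0.031 in edgeR). Those fits called 6946, 7230 and 5476 of 15648 genes, against 3604 with the surrogate variables. Within the rAAV-OVA group Foxn3 was higher at 28 than at 2 days (0.30, SE 0.12, FDR 0.048 in edgeR, and 0.49 with FDR 0.0066 without mouse 4), a call lost when mouse 1, 2 or 4 of 2 days or mouse 1 or 3 of 28 days was left out (0.25 to 0.39). Summed oligodendrocyte markers at 28 days were 7971, 5105, 6386 and 4731 CPM in rAAV-OVA mice 1 to 4, against 5112 to 6900 CPM in controls, and 0 of 5 passed the test. In the same 4 mice the T cell sums were 243, 117, 241 and 10.2 CPM, the monocyte sums 1646, 759, 1615 and 81.0 CPM and the microglial sums 1418, 948, 1292 and 476 CPM. The astrocyte sums were 4327, 3260, 4842 and 2232 CPM and the sums of cycling cell markers 160, 72.4, 195 and 31.2 CPM. For all of these and the oligodendrocyte sums, as for Foxn3, mice 1 and 3 were the highest and mouse 4 the lowest. Endothelial sums (175, 173, 298 and 197 CPM) and neuronal sums (2183, 3544, 1820 and 3255 CPM) had another order. The part of these cell types in the level of Foxn3 was not tested. At 2, 5 and 8 days Foxn3 stayed between 44.0 and 60.9 CPM in all mice and its Log2FC was 0.03, -0.06 and 0.02.

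Foxk1 fell at 28 days with all mice. The rAAV-control mice had 98.6, 93.1, 98.7 and 109 CPM (99.9 ± 6.64, SD, n = 4) and the rAAV-OVA mice 94.8, 97.0, 76.2 and 75.3 CPM (85.8 ± 11.6, SD, n = 4). Mice 3 and 4, both of batch 2, were below all controls, and mice 1 and 2 of batch 1 were among them. The Log2FC was -0.36 (SE 0.12, 95% CI -0.60 to -0.12, FDR 0.019 in edgeR), beside 14.3% of all genes called lower. Without the surrogate variables it was -0.22 (FDR 0.28, edgeR), and the call was lost. It was lost too without rAAV-OVA mouse 4 (-0.19, FDR 0.38 in edgeR), rAAV-OVA mouse 3 (-0.22, FDR 0.15 in edgeR) or rAAV-control mouse 4 (-0.32, FDR 0.065 in edgeR). Within batch 1 the value was -0.07 and within batch 2 it was -0.36, neither past the threshold (FDR 0.77 and 0.37 in edgeR). At 5 days Foxk1 had 89.3, 104, 65.7 and 79.1 CPM in controls and 71.4, 81.6, 78.3 and 74.6 CPM in rAAV-OVA mice, with a Log2FC of -0.23 (SE 0.11, FDR 0.14 in edgeR) that passed only without rAAV-OVA mouse 2 (-0.34, FDR 0.039 in edgeR).

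Across the members, then, 0 of 7 passed at 2, 5 and 8 days, beside 0%, 29.2% and 18.3% of all genes, and 3 of 7 passed at 28 days (2 higher, 1 lower), beside 33.4% of all genes. Without mouse 4, 1 of 7 passed beside 23% of all genes, and this was Foxn3. In the fits without mouse 4 that used no covariates, the batch label or the 28-day mice alone, 2 of 7 passed, Foxo1 and Foxn3. Those fits called 6946, 7230 and 5476 of 15648 genes. None of the 7 was a DEG at any day, beside 14.2%, 9.94% and 17.6% of all genes at 5, 8 and 28 days, and 14.7% at 28 days without mouse 4. The median member Log2FC was -0.17 at 5 days and -0.10 at 28 days, against -0.01 and 0.01 over all genes, and at 28 days without mouse 4 it was 0.00 against 0.03. Responses at 8 and 5 days differed for 30 genes (0.192%) and those at 5 and 2 days for 20.8% of genes, with no member among them.

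The other 15 forkhead genes analysed held some larger changes. At 5 days 1 rose and 2 fell, beside 29.2% of all genes called. At 8 days 1 rose, beside 18.3%. At 28 days 5 rose and 0 fell, beside 33.4% of all genes called and 19.2% called higher, and all 5 were DEGs, beside 17.6%. Without mouse 4 the count was again 5 rising and 0 falling, beside 23% called and 17.2% called higher, with 3 genes in both sets. The median Log2FC of the 15 genes at 28 days was 0.81, and 0.52 without mouse 4, against 0.01 and 0.03 over all genes. Foxm1, which drives the genes of G2 and mitosis in dividing cells, was at 2.15, 2.27, 2.19 and 2.92 CPM in rAAV-control mice and at 9.42, 12.1, 11.1 and 6.78 CPM in rAAV-OVA mice at 5 days. The groups were far apart, on a day when 40.6% of all genes had groups that did not overlap, with a Log2FC of 1.60 (SE 0.32, FDR 0.00073 in edgeR). It was 2.31 at 8 days (FDR 0.00019 in edgeR), and 1.72 at 28 days (FDR 0.00075 in edgeR; 2.14 without mouse 4). At 2 days, before this, Foxm1 was at 4.50, 8.54, 4.35 and 7.88 CPM in rAAV-control mice and at 1.75, 2.52, 4.68 and 4.19 CPM in rAAV-OVA mice (Log2FC -0.90, FDR 0.37 in edgeR), so the 2-day controls were above all later controls. All 5 markers of cycling cells rose at 5, 8 and 28 days as well, with sums of 99.5 to 137 CPM in rAAV-OVA mice against 6.09 to 14 CPM at 5 days and of 31.2 to 195 CPM against 5.23 to 9.34 CPM at 28 days, where all 5 also rose without mouse 4. Which cells held Foxm1 was not tested.

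Foxo4, the remaining FOXO gene of the table, fell at 5 days, from 19, 21.3, 21.8 and 28.6 CPM to 16.2, 18.8, 14.9 and 15.5 CPM. All rAAV-OVA mice were below all controls, and 40.6% of all genes had groups that did not overlap at that day in either direction. The Log2FC was -0.48 (SE 0.12, FDR 0.0041 in edgeR), beside 29.2% of all genes called. At 28 days it was 0.03 (FDR 0.88, edgeR; 0.12 with FDR 0.62 without mouse 4), and the 28-day response exceeded the 5-day one by 0.51 (SE 0.16, FDR 0.042 in edgeR; 0.53 with FDR 0.086 without mouse 4). Foxp4, a close relative of Foxp1, also fell at 5 days (Log2FC -0.33, SE 0.12, FDR 0.041 in edgeR), from 47.0 to 53.3 CPM in controls to 38.5 to 42.1 CPM. Its 28-day response exceeded the 5-day one by 0.49 (FDR 0.046, edgeR; 0.71 with FDR 0.0089 without mouse 4). Foxk2 was the third gene of the 15 with a response that differed between 28 and 5 days (-0.35, FDR 0.034 in edgeR; -0.32 with FDR 0.12 without mouse 4); it was named after its values were seen.

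**Figure D4:**
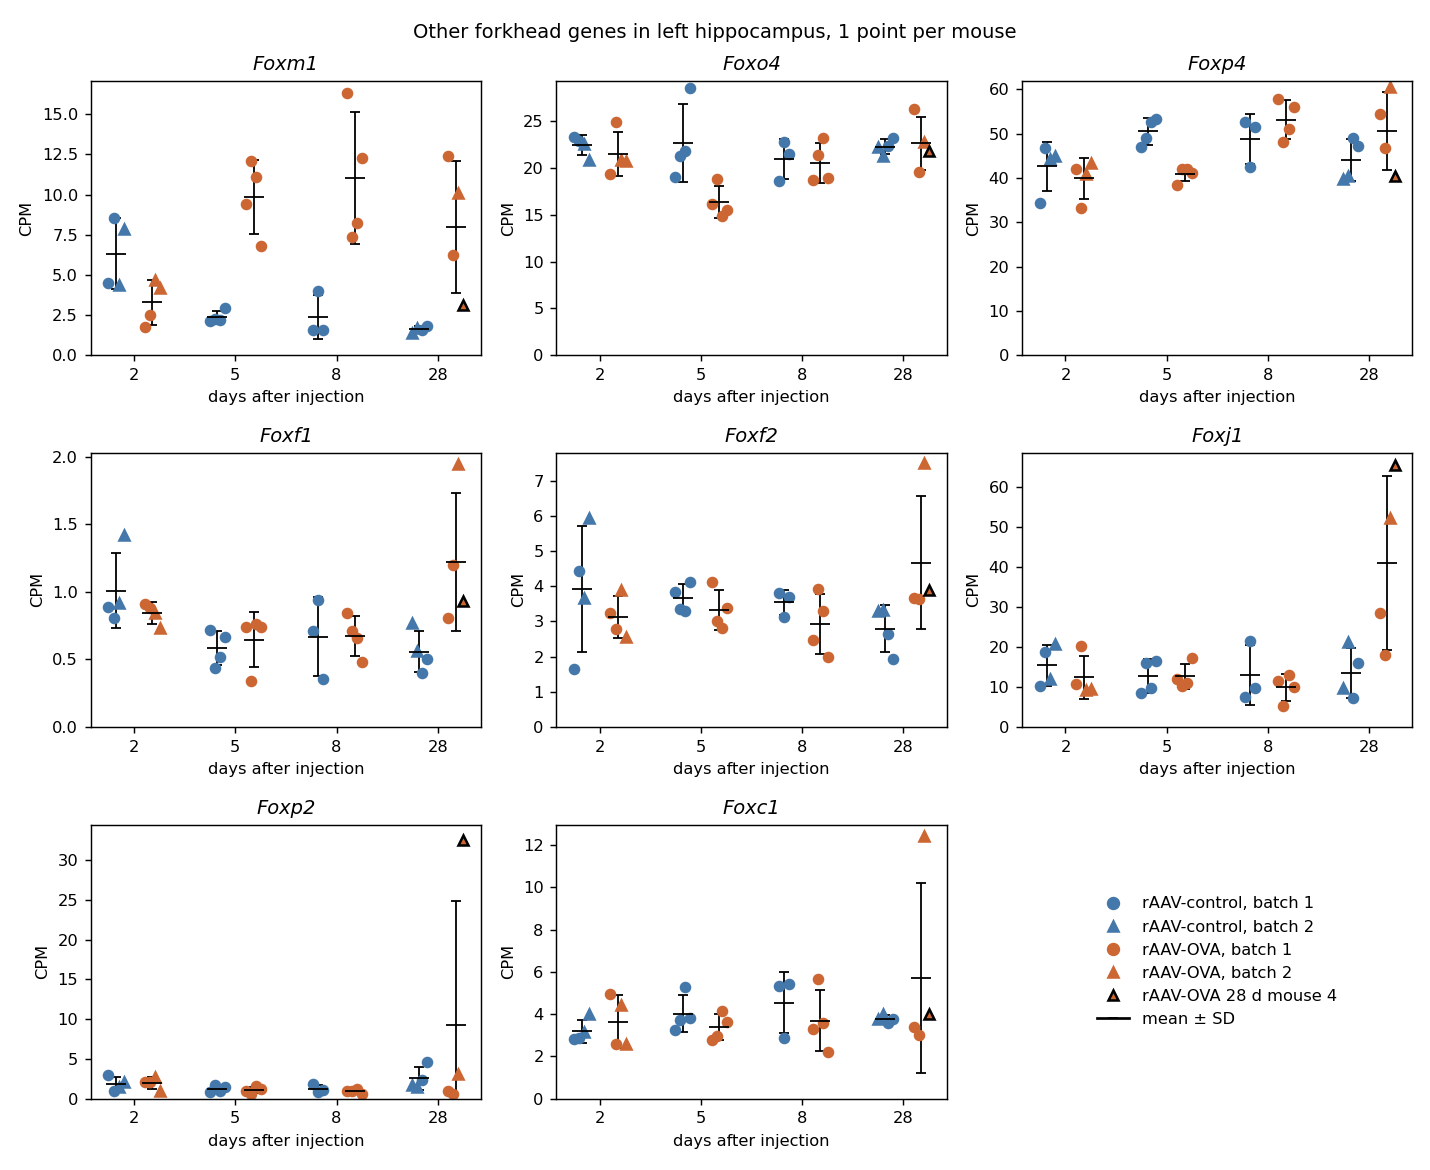
CPM of 8 other forkhead genes in each mouse by day and treatment; circles are batch 1, triangles are batch 2, and mouse 4 of the rAAV-OVA group at 28 days is outlined in black. From 5 days on Foxm1 is higher in every rAAV-OVA mouse than in every control of the same day, whereas the 28-day rise of Foxp2 comes from mouse 4 (32.5 CPM, the other 3 at 0.634 to 3.12 CPM).

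At 28 days, 3 forkhead genes rose both with and without mouse 4. These were Foxm1 and the mesenchymal factors Foxf1 and Foxf2, the latter known from brain pericytes. Foxf1 was at 0.770, 0.561, 0.402 and 0.503 CPM in controls and at 0.805, 1.20, 1.95 and 0.931 CPM in rAAV-OVA mice (Log2FC 1.07, FDR 0.020 in edgeR; 1.21 with FDR 0.045 without mouse 4). Foxf2 was at 3.31, 3.33, 2.63 and 1.92 CPM and at 3.67, 3.63, 7.50 and 3.90 CPM (0.83, FDR 0.041 in edgeR; 1.18 with FDR 0.031 without mouse 4). For both the rAAV-OVA mice lay above the controls, and 29% of all genes had groups that did not overlap in either direction. The nearest mice of the 2 groups were at 0.805 and 0.770 CPM for Foxf1. Mouse 3 was the highest for both genes, and its meningeal fibroblast markers summed to 728 CPM against 79.5 to 129 CPM in the other 3. The part of such cells was not tested, and the values of Foxm1, Foxf1 and Foxf2 without mouse 3 were not examined.

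Foxj1, the master gene of motile cilia in ependyma and choroid plexus, and Foxp2, a striatal and deep-layer neuronal factor, were DEGs only with mouse 4 in the fit. Foxj1 had 9.74, 21.2, 7.32 and 16 CPM in controls and 28.5, 17.9, 52.2 and 65.5 CPM in rAAV-OVA mice, with a Log2FC of 1.54 (FDR 0.0091, edgeR) and 0.52 without mouse 4 (FDR 0.45, edgeR). Foxp2 gave 1.81 (FDR 0.018, edgeR) and -0.43 without mouse 4 (FDR 0.65, edgeR). Without mouse 4, Foxp4 (0.44, FDR 0.016 in edgeR) and Foxc1 (1.28, FDR 0.043 in edgeR) rose in addition. Foxc1, named after its values were seen, stood at 3.39, 3.03 and 12.4 CPM in the 3 remaining mice against 3.59 to 4.01 CPM in controls, so that only mouse 3 was above them.

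Few genes passed in the arm that controls FOXO proteins. Of 15 genes between the insulin receptor and the kinases AKT and SGK, 0 rose and 1 fell at 5 days, beside 29.2% of all genes called. This was Akt1, the broadly expressed AKT kinase gene (Log2FC -0.26, SE 0.08, FDR 0.013 in edgeR), with a mean of 150 CPM against 179 CPM. At 8 days 1 rose and 0 fell, beside 18.3% of all genes, and this was Pik3cd (1.17, FDR 0.0033 in edgeR). At 28 days 1 rose and 1 fell, beside 33.4% of all genes, and the same count held without mouse 4 beside 23%. Pdpk1, the kinase that activates AKT, fell to a mean of 132 CPM against 171 CPM (-0.37, FDR 0.025 in edgeR; -0.42 without mouse 4). Pik3cd, the PI3-kinase subunit of leukocytes, rose to 53.4 CPM against 24.5 CPM (0.72, FDR 0.033 in edgeR; 1.38 without mouse 4). Monocyte and T cell markers rose on the same day, and their part in Pik3cd was not tested. The median of the 15 genes was -0.04 at 5 days and -0.08 at 28 days, and 0.03 at 28 days without mouse 4.

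Of 19 genes whose products modify or bind FOXO proteins, 1 rose and 3 fell at 5 days, beside 15.2% of all genes called higher and 14% lower, and 1 rose and 4 fell at 28 days, beside 19.2% and 14.3%. At 5 days the deacetylase gene Sirt2, which is strong in oligodendrocytes, fell (-0.54, FDR 0.0061 in edgeR), as did the 14-3-3 genes Ywhah (-0.47, FDR 0.022 in edgeR) and Ywhaq (-0.31, FDR 0.027 in edgeR). Oligodendrocyte markers fell on that day too, 4 of 5 of them, with sums of 2679 to 3956 CPM against 4209 to 7264 CPM, and their part in Sirt2 was not tested. At 8 days 3 rose and 2 fell, beside 13.9% of all genes called higher and 4.44% lower, with Ywhaq (-0.35, FDR 0.028 in edgeR) and Prkaa2 (-0.51, FDR 0.037 in edgeR) the genes that fell. At 28 days Ywhah (-0.60, FDR 0.0054 in edgeR), the stress kinase gene Mapk8 (-0.58, FDR 0.0026 in edgeR) and the AMPK subunit gene Prkaa2 (-0.58, FDR 0.0097 in edgeR) fell. None of the 3 passed without mouse 4 (-0.41, -0.36 and -0.35), where 1 gene of the list rose and 1 fell, beside 17.2% and 5.85% of all genes. Neuronal marker sums were lower at 5 and 28 days, at 2912 to 3372 CPM against 4368 to 5153 CPM at 5 days, when 2 of 5 markers fell, and at 1820 to 3544 CPM against 4221 to 4962 CPM at 28 days, when 4 of 5 fell. Their part in Ywhah, Ywhaq, Mapk8 and Prkaa2 was not tested. The median of the list at 28 days was -0.11, and -0.10 without mouse 4.

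Of 34 genes listed as FOXO targets 32 were in the table. At 5 days 6 rose and 8 fell (median -0.04) beside 15.2% of all genes called higher and 14% lower, and at 28 days 9 rose and 3 fell (median 0.26, and 0.13 without mouse 4 with 7 rising and 2 falling), beside 19.2% of all genes called higher and 14.3% lower with all mice and 17.2% and 5.85% without mouse 4. The largest changes at both days were those of Il7r, the receptor for interleukin 7, and Tnfsf10, the death ligand TRAIL. At 8 days 3 rose and 1 fell, beside 13.9% and 4.44% of all genes, with Il7r (2.80), Bcl2l11 (1.97) and Tnfsf10 (1.78) the genes that rose. Il7r was at 8.54, 3.38, 13.6 and 1.17 CPM in rAAV-OVA mice at 28 days and at 0.241 to 0.805 CPM in controls. It rose at 5 days (Log2FC 3.11, FDR 2.7e-05 in edgeR) and at 28 days (2.54, FDR 0.00049 in edgeR; 2.83 without mouse 4). Tnfsf10 rose at 5 days (2.40, FDR 0.00042 in edgeR) and at 28 days (2.02, FDR 0.0023 in edgeR; 2.36 without mouse 4). The cell cycle inhibitor gene Cdkn1a rose at 5 days (1.66, FDR 0.0099 in edgeR) from 6.09 to 16.7 CPM in controls to 29.6 to 46.8 CPM, and gave 0.31 at 28 days (FDR 0.64, edgeR; 0.13 without mouse 4). The growth arrest genes Gadd45b (1.06, FDR 0.00042 in edgeR) and Gadd45a (0.82, FDR 0.013 in edgeR) also rose at 5 days and gave -0.05 and 0.29 at 28 days (0.06 and 0.38 without mouse 4). Both were named after their values were seen. The pro-apoptotic gene Bcl2l11, which encodes BIM, rose at 28 days (1.63, FDR 0.0038 in edgeR; 2.23 without mouse 4), from 5.77 to 7.43 CPM in controls to 6.83 to 49.4 CPM. Txnip, a brake on glucose uptake also named after its values were seen, gave 1.30 at 28 days (FDR 0.0070, edgeR) and 0.84 without mouse 4 (FDR 0.14, edgeR). Il7r is a gene of lymphocytes, and in mouse 4, whose T cell markers were the lowest of its group, it was the lowest too. The part of the infiltrating cells in these values was not tested.

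Of 12 genes of corepressor complexes listed as partners of forkhead factors, none passed at 5 days, beside 29.2% of all genes. At 8 days 3 rose and 0 fell, beside 13.9% and 4.44%, and these were Hdac1 (0.67, FDR 0.0035 in edgeR), Gatad2a (0.45, FDR 0.010 in edgeR) and Sin3a (0.31, FDR 0.029 in edgeR). At 28 days 3 rose and 2 fell, beside 19.2% of all genes called higher and 14.3% lower, and without mouse 4 the list had 4 rising and 0 falling, beside 17.2% and 5.85%. Hdac1, a histone deacetylase (0.56, FDR 0.0057 in edgeR), Sin3a, a scaffold of a deacetylase complex (0.40, FDR 0.0024 in edgeR), and Gatad2a, a NuRD subunit (0.35, FDR 0.023 in edgeR), rose with all mice, and all 3 also rose without mouse 4 (0.80, 0.47 and 0.58). In mouse 4, whose T cell and monocyte sums were the lowest of its group, Hdac1 and Gatad2a were at 27.7 and 32.5 CPM, inside the control ranges of 24.4 to 30.7 and 32.5 to 36.4 CPM. The other 3 mice had 40.9 to 66.4 and 45.6 to 65.8 CPM. Sin3a in mouse 4 was at 49.1 CPM, above the controls at 35.3 to 39.1 CPM. The part of the infiltrating cells in these genes was not tested. Ncor1 and Bap1 fell (-0.35 and -0.24) and did not pass without it (-0.17 and -0.16). They were named after their values were seen. The median of the list at 28 days was 0.01, and -0.02 without mouse 4.

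**Figure D5:**
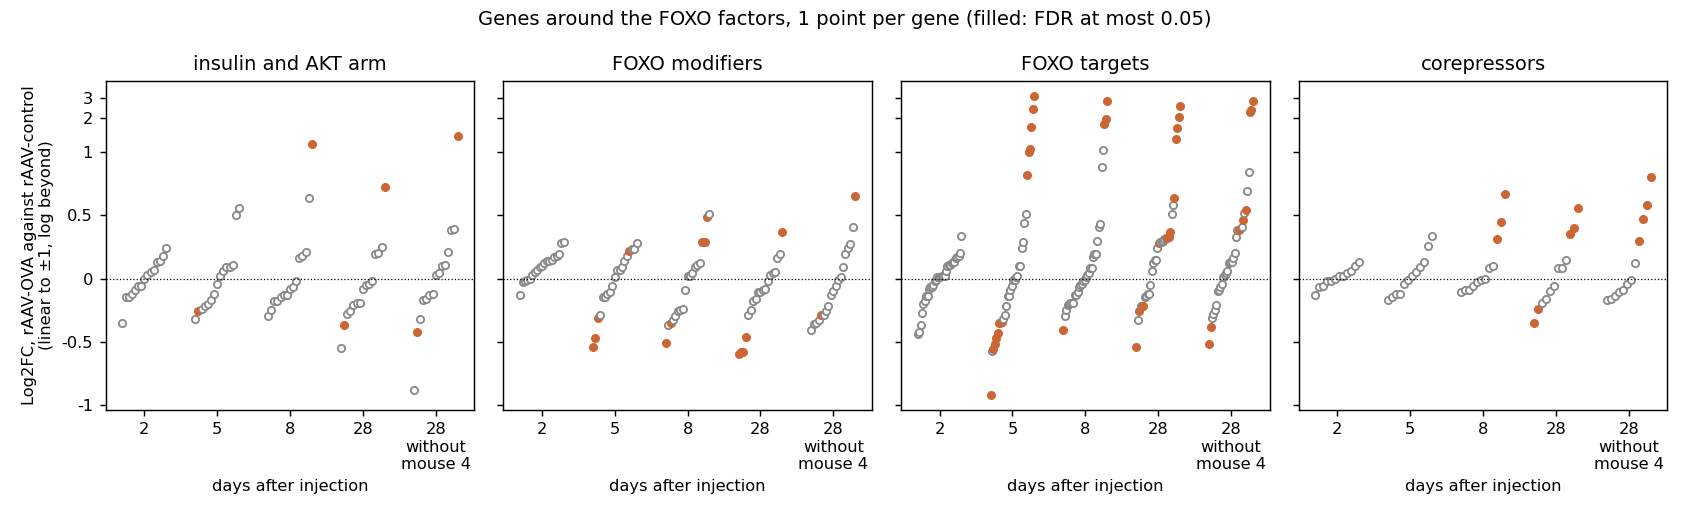
Log2FC (rAAV-OVA minus rAAV-control, linear near 0 and logarithmic beyond) of each gene of 4 lists, the insulin and AKT arm, FOXO modifiers, FOXO targets and corepressor partners, at 2, 5, 8 and 28 days and at 28 days without mouse 4; each point is a gene. Most genes lie near 0, and of the 4 lists the FOXO targets reach beyond 2, with Il7r, Tnfsf10 and, at 28 days without mouse 4, Bcl2l11 (2.23).

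Some members varied together once treatment and day were taken out. Over the 31 mice the deviations from the group means on the log2 CPM scale gave Pearson r from 0.64 for Foxo1 and Foxo3 to -0.46 for Foxo6 and Foxn3. Between these were Foxn2 and Foxk1 (0.48), Foxo1 and Foxp1, Foxo3 and Foxk1, and Foxn2 and Foxn3 (0.47 each), while Foxo1 and Foxn3 gave 0.01. These points share libraries and depth, and the correlations are given as descriptions. Differences between the batches within a group were not taken out. Mouse 4, with the highest Foxo1 and Foxp1 of all mice, was kept, and no correlation was computed without it. The 3 genes most like each member among 15647 others were Lrrc61, Emc1 and Filip1 for Foxo1 (r = 0.81, 0.76 and 0.71) and Trp53bp2, Ube2h and Lrrc58 for Foxo3 (0.77, 0.77 and 0.76). For Foxo6 they were Kcnmb2, Unc5a and AU022252 (0.81, 0.81 and 0.80), and for Foxn2 Nup93, Mapk14 and Wdr1 (0.86, 0.85 and 0.80). Foxn3 was most like Padi2, Fnbp1 and Tmem63a (0.89 each). Foxp1 was most like Osbpl8, Csnk1g1 and Ylpm1 (0.91, 0.88 and 0.88), and Foxk1 was most like Rere, Zbtb20 and Sorl1 (0.90, 0.88 and 0.86). Among these, Lrrc61 shared both signs with Foxo1, falling at 5 days (Log2FC -0.41, FDR 0.0074 in edgeR) and rising at 28 days (0.31, FDR 0.034 in edgeR; 0.23 with FDR 0.23 without mouse 4). Of the 3 genes like Foxk1, all fell at 28 days (-0.28, -0.72 and -0.64), and none passed without mouse 4 (-0.14, -0.52 and -0.42). The likeness and the fits rest on the same mice.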

How the data were processed

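The authors trimmed reads, quantified them with Salmon 1.8.0 against mouse transcripts and deposited estimated counts per gene, whole in the file, after a filter that kept genes reaching 15 counts in 15 or more mice; the labels also name DESeq2 1.36.0. The 2 deposited tables were identical. All 7 members passed that filter. Replicates are separate mice. From the estimated counts, CPM were computed here with edgeR 4.0.16 in R 4.3.3, as counts scaled to the library total times its TMM factor. The tests used TMM, edgeR's robust quasi-likelihood F-test and 2 surrogate variables from sva 3.50.0, in 1 fit of 8 groups and 31 mice. P-values were adjusted by Benjamini-Hochberg over all 15648 genes. The correlations used log2 CPM with a prior count of 2. Scripts were tested on simulated data. Alternatives were DESeq2 1.42.0 (Wald test, and ashr 2.2.63), limma 3.58.1 voom, other covariates, filters and subsets.

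The members and lists were chosen with earlier results of these data known. Named were all members, other forkhead genes past FDR at 5, 8 or 28 days, the 3 largest changes past FDR in each pathway list at 5 and 28 days, and the 3 genes most like each member. A gene is called by symbol, and 824 genes of the table have none. A few genes of the lists are not reported here and were left out of the lists' counts, but not of the fits. Coordinates are given for the promoter stretches of Foxp1 only, on GRCm38.p6. Those of the genes are not given because the annotation at hand is of another build than that of the deposited table. The library totals limit counting error only.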

Additional observations from a re-analysis of the deposited data

Results flagged for a closer look

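In 112 groups of 4 mice (members and named forkhead genes), 8 held a mouse whose distance from the nearest other mouse exceeded Dixon's 95% limit, and chance flags about 1 group in 20. Foxo6 in rAAV-OVA at 8 days had mouse 2 at 22.4 CPM with the others at 15.7 to 16.8 CPM. Foxp2 in rAAV-OVA at 28 days had mouse 4 at 32.5 CPM with the others at 0.634 to 3.12 CPM, the mouse with striatal genes at 2206 CPM. Foxf2 in the same group had mouse 3 at 7.50 CPM with the others at 3.63 to 3.90 CPM. Foxc1 in the same group had mouse 3 at 12.4 CPM with the others at 3.03 to 4.03 CPM. Foxk2 in rAAV-OVA at 8 days had mouse 2 at 119 CPM with the others at 100 to 103 CPM. Foxf1 in rAAV-OVA at 5 days had mouse 2 at 0.339 CPM with the others at 0.737 to 0.763 CPM. Foxj1 in rAAV-OVA at 2 days had mouse 2 at 20.2 CPM with the others at 9.16 to 10.7 CPM. Foxm1 in rAAV-control at 5 days had mouse 4 at 2.92 CPM with the others at 2.15 to 2.27 CPM.

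For 5 genes the response to rAAV-OVA differed between days in edgeR's test of the difference. From 5 to 28 days the Log2FC rose by 0.95 for Foxo1 (FDR 0.0059), 0.51 for Foxo4 (FDR 0.042) and 0.49 for Foxp4 (FDR 0.046), and without mouse 4 the values were 0.81, 0.53 and 0.71, with Foxo4 no longer called (FDR 0.086). For Foxk2 the difference was -0.35 (FDR 0.034), and -0.32 without mouse 4 (FDR 0.12). From 2 to 5 days the Log2FC of Foxm1 differed by 2.50 (FDR 0.00052), from -0.90 at 2 days, which did not pass (FDR 0.37), to 1.60 at 5 days.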

How the results depend on the processing

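Of 945 recomputed member values 808 kept their direction and their side of the threshold, 37 lost a call, 13 gained one and 87 changed sign. No value that changed sign passed FDR ≤ 0.05 in either fit, and the largest of them was 0.22 in size. Foxo1 at 28 days passed in each of the 9 other fits that kept all 28-day mice (0.53 to 0.62), and Foxp1 and Foxk1 in 6 of 9 each. Foxo1 did not pass in batch 1 alone (0.36), batch 2 alone (0.80) or, with surrogate variables, without mouse 4 (0.38). Members past FDR at 5 days numbered 2 with no covariates, 2 with the batch label in place of surrogate variables and 1 in the mice of the day alone. Those fits called 5200, 5593 and 6418 of 15648 genes, against 4566 in the main fit. At 28 days the members past FDR numbered 1 with no covariates (6080 genes called in all) and 1 in the mice of the day alone (2704 genes). They numbered 0 in batch 1 or batch 2 alone. For the response at 28 against 8 days DESeq2 called 1 member, also a DEG, among 223 genes called. Within rAAV-OVA, 28 against 2 days gave 0 DEGs without mouse 4, with no covariates or with the batch label. The cause was not tested. Over the fits that each left out 1 mouse, the count at FDR ≤ 0.05 was 0 to 2 at 5 days, 1 to 3 at 28 days (DEGs 0 to 1, Foxo1 at 0.69 without rAAV-OVA mouse 2), and 1 to 3 within rAAV-OVA (DEGs 0 to 1). The share of all genes called is given only for the fit without mouse 4, so the other counts have no background beside them. Within rAAV-OVA Foxp1 was lost without mouse 2 of 2 days (0.28) or mouse 3 of 28 days (0.31), and Foxo1 stayed called in all 8 fits (0.55 to 0.84) but was no DEG without mouse 2 or 4 of 2 days or mouse 4 of 28 days.

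Signs changed as follows. At 2 days, Foxp1 was -0.10 in batch 1 alone, and Foxo1 0.03, Foxo3 0.08, Foxo6 -0.02 and Foxk1 0.14 in batch 2 alone, with Foxo1 at 0.01 in limma voom. At 5 days Foxn2 was 0.16 and Foxn3 0.04 with no covariates or the batch label, and 0.19 and 0.07 in the mice of the day. At 8 days Foxn3 was -0.03 and Foxk1 -0.05 with no covariates or the batch label, and Foxk1 -0.02 in the mice of the day. At 28 days Foxn2 was 0.03 with no covariates, 0.04 with the batch label or in the mice of the day and 0.20 in batch 1, Foxo3 was 0.18 in batch 2, and without mouse 4 Foxn2 was 0.18, 0.21 and 0.15 with no covariates, the batch label and the mice of the day. With no covariates or the batch label, the 5 minus 2 day response of Foxn3 was 0.03, the 8 minus 5 day responses of Foxn3 and Foxp1 were -0.07 and -0.00, and Foxo6 was 0.01 within rAAV-control. Foxo3 was -0.01 within rAAV-control with DESeq2, its size factors, or the batch label beside surrogate variables. Within rAAV-OVA, Foxo3 was 0.04 and Foxn2 0.07 with no covariates or the batch label, and Foxk1 0.01 with the latter. Without mouse 4 these 3 were 0.06, 0.19 and 0.06 with no covariates and 0.05, 0.22 and 0.14 with the batch label, and the 28 minus 5 day response was 0.01 (no covariates) or 0.05 (batch label) for Foxk1 and 0.02 (batch label) for Foxn2.

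Ranges with each mouse left out that cross 0 were, at 2 days, -0.14 to 0.07 (Foxo1), -0.21 to 0.01 (Foxo3), -0.12 to 0.13 (Foxo6), -0.05 to 0.07 (Foxn3), -0.07 to 0.20 (Foxp1) and -0.24 to 0.07 (Foxk1). They were -0.16 to 0.13 (Foxn2) and -0.13 to 0.03 (Foxn3) at 5 days, and -0.25 to 0.07 (Foxo3), -0.04 to 0.29 (Foxo6), -0.10 to 0.11 (Foxn3) and -0.09 to 0.15 (Foxk1) at 8 days. They were -0.22 to 0.01 (Foxo3) and -0.39 to 0.00 (Foxo6) at 28 days, -0.02 to 0.21 (Foxo3) and -0.20 to 0.03 (Foxk1) for 28 minus 5 days, and -0.10 to 0.05 (Foxo3) and -0.26 to 0.17 (Foxk1) within rAAV-OVA. The 28 minus 8 day response of Foxo3 was -0.01 without mouse 4.

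The fits without mouse 4 and the left-out mice of the 28 minus 5 day response and of the rAAV-OVA days were chosen after seeing the data. Leaving out mice in the other differences between days, and the other alternatives for the other forkhead genes and the pathway lists, were not run. Genes called in all numbered 5233 at 28 days, and 2704 in the mice of the day, 1127 in batch 1 and 0 in batch 2 alone. At 8 days they numbered 2869, and 0 in the mice of the day. For 28 minus 5 days they numbered 1507, and 475 with no covariates, 650 with the batch label. For 8 minus 5 days they numbered 30, and 16, 19 and 91 with no covariates, the batch label and DESeq2. No paired analysis was possible because the labels give the mice no replicate numbers that could pair treatments. The SE of a member's Log2FC between treatments was 0.11 to 0.23, which limits what 3 or 4 mice per group could show.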
